A study of Mus musculus with 6 samples.

Results

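De novo purine synthesis is described here through 10 mouse genes, Ppat, Gart, Pfas, Paics, Adsl, Atic, Prps1, Impdh1, Impdh2 and Gmps, in SL4 cells with and without SEMA6A overexpression. The members were the rows of the deposited expression table that carry these symbols. All 10 were found among 53700 listed genes, and each symbol named 1 identifier. The set was selected on the measured TPM of Ppat, which rose in these libraries, so the values of Ppat are a description and carry no test. The question was whether any other enzyme of the pathway followed it.

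Purine nucleotides are built stepwise on ribose phosphate. Prps enzymes make the activated sugar PRPP, Ppat (PRPP amidotransferase) transfers the amide nitrogen of glutamine to it as the committed step, and Gart, Pfas, Paics, Adsl and Atic then complete the ring to IMP, the first purine nucleotide. IMP is turned into GMP by the Impdh enzymes and Gmps, and into AMP by adenylosuccinate synthetase and Adsl, which thus acts in both the main line and the AMP branch. The pathway is known for its activity in proliferating cells, which need purines for DNA and RNA, and Ppat is held back by its nucleotide end products.

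SL4 is a mouse colorectal cancer (CRC) cell line carrying luciferase. The pLV-SEMA6A group (3 libraries) came from SL4 cells stably carrying a lentivirus for SEMA6A, a transmembrane semaphorin, and the pLV-Control group (3 libraries) from SL4 cells without SEMA6A overexpression. Whether the pLV-Control cells carried a lentivirus without SEMA6A is not settled by the sources used here. An effect of carrying the lentivirus therefore cannot be told apart from an effect of SEMA6A. No age, treatment or time is given for the cultures. The promoter that drives SEMA6A is not given in the sources used here, and no independently made pLV-SEMA6A lines are described, so an effect of SEMA6A and a difference between cell lines cannot be told apart. Nothing says that the libraries of a group came from separate cultures, so the p-values measure the spread between these libraries, which may be technical. The table names no unit. Its values were read as TPM, a read share corrected for transcript length and scaled to 1 total, because RSEM is named in the processing notes and the listed values sum to 984475 to 986444 in pLV-Control and 977400 to 977972 in pLV-SEMA6A. Sequencing depth is unknown, because TPM does not keep it.

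Sema6a was listed at 0 throughout pLV-Control, against 98.7, 118 and 112 TPM in pLV-SEMA6A, as the labels say. The colorectal label was checked against 12 markers of colon epithelium. Of these, 11 stayed under 1 TPM on average, and Epcam, Cdx1 and Cdx2 were listed at 0 in all 6 libraries. Their summed level was 1.94 to 3.08 TPM for pLV-Control and 0.57 to 1.41 TPM for pLV-SEMA6A. Of the 9 fibroblast markers 6 were tested, with 3 higher and 2 lower. That is 83.3% at an adjusted p under 0.05 from limma, where 47.6% of all genes tested passed. The sum of the 9 was 1013 to 1050 TPM for pLV-Control and 1570 to 1610 TPM for pLV-SEMA6A, mostly Vim. The 9 leukocyte and 6 endothelial markers each averaged under 1 TPM. The sums were at most 0.7 TPM for leukocyte markers and at most 0.56 TPM for endothelial markers in every library. In bulk RNA, fewer cells of a type and less RNA per cell cannot be told apart, and the part of the marker differences in the results below was not tested. pLV-SEMA6A replicate 2 stood apart in mt-Co3, a mitochondrial gene with 0.33 TPM there against 140.6 to 450.1 TPM elsewhere.

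The start regions of Ppat and Paics are shown first, because both genes leave the same short stretch of chromosome 5 in opposite directions. On GRCm38, Ppat lies at chr5:76913249-76951578 on the minus strand and Paics at chr5:76951307-76967509 on the plus strand, and their annotated first exons overlap by 272 bases. Each of the following stretches is from the RefSeq start windows of GRCm38.p6, which hold 250 bases before and 50 bases after an annotated start. Capitals mark a searched motif. The first lies 23 bases after the Ppat start and holds GCGCATG, part of the site of the factor NRF1. The second lies 12 bases before the Ppat start and holds a GC box, GGGCGG, which shares 2 letters with an ETS core read on the other strand. The next pair lies 203 and 23 bases before the Paics start and holds the E-box CACGTG and the CCAAT box. In both windows, all 250 bases before the start lie in annotated exons of Ppat or Paics. In the windows of Gart and Adsl 0 such bases are exonic, and in that of Atic 6.
Ppat, chr5:76951538-76951567, minus strand: ccaaaaagtggcGCGCATGctgcaaggccc
Ppat, chr5:76951573-76951602, minus strand: gaccccgcttccGGGCGGcccctccccgca
Paics, chr5:76951087-76951116, plus strand: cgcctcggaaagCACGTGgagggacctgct
Paics, chr5:76951266-76951295, plus strand: ctcccgctctccgCCAATcagctagggcaa

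Upstream sequence of Gart, Adsl and Atic is shown as the counterpart to Ppat, since these are the members with a higher level in pLV-SEMA6A that had a start window. Pfas was not matched. Capitals again mark GGGCGG and CCAAT, on either strand. The E-box of the Atic window runs past the end of the bases printed here.
Gart, chr16:91646973-91647222, minus strand: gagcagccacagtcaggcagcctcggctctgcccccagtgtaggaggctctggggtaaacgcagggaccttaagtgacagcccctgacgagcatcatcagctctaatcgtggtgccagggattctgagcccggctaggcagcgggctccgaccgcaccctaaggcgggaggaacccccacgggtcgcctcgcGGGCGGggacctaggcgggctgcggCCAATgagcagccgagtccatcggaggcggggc
Adsl, chr15:80948240-80948489, plus strand: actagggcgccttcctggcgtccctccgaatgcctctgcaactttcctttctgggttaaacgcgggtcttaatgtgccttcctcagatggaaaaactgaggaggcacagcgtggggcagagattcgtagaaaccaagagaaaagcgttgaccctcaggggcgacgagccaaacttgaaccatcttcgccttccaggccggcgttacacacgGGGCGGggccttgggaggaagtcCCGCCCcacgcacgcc
Atic, chr1:71556906-71557149, plus strand: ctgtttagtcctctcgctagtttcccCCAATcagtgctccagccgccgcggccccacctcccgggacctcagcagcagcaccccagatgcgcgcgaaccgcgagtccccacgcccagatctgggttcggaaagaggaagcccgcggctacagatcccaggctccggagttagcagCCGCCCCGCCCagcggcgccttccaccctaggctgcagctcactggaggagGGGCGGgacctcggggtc

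RefSeq start windows were matched for 9 members, with 10 windows in all because Impdh1 has a pair of them. Both strands were searched for each motif. The GC box GGGCGG was in 10 of the 10 windows and in 35.7% of all 32851 windows of the same length. The E-box CACGTG was in 3 windows, those of Paics, Atic and Impdh2, and in 7.15% of all windows. CCAAT was in 5 windows (37.4% of all windows), the ETS core CCGGAA in 4 (14.9%), and GCGCATG in the Ppat window alone among the members (3.91%). Paics shared its E-box with Atic, whose level differed between the groups, and with Impdh2, whose difference did not pass the test. A match is a description of these letters and is not a binding site.

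Ppat was measured at 16.7, 15.5 and 17.8 TPM across pLV-Control versus 2159, 2318 and 2161 TPM across pLV-SEMA6A. The groups were far apart and tight within themselves, with means of 16.7 ± 1.12 and 2213 ± 91.2 TPM (SD, n = 3 each), a ratio of 133. On the log2(TPM + 1) scale the difference was 6.97. Among all 53700 listed genes, Ppat moved from rank 6692 by mean level in pLV-Control to rank 64 in pLV-SEMA6A. It made up 0.00158 to 0.00180% of all listed TPM in the pLV-Control libraries and 0.221 to 0.237% in the pLV-SEMA6A libraries.

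The place of Ppat within its own pathway turned over. Of the 6 enzymes of the line from PRPP to IMP, Ppat ranked 6, 5 and 5 by level in pLV-Control replicates 1, 2 and 3, and ranked 1 in every pLV-SEMA6A library. Its share of the summed TPM of the 10 members was 1.78, 1.67 and 1.91% in pLV-Control, and 67.6, 69.3 and 67.5% in pLV-SEMA6A. The other 9 genes together summed to 923, 916 and 915 TPM for pLV-Control and to 1036, 1029 and 1039 TPM in pLV-SEMA6A. Most of the gain in the summed level was therefore in Ppat itself.

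**Figure D1:**
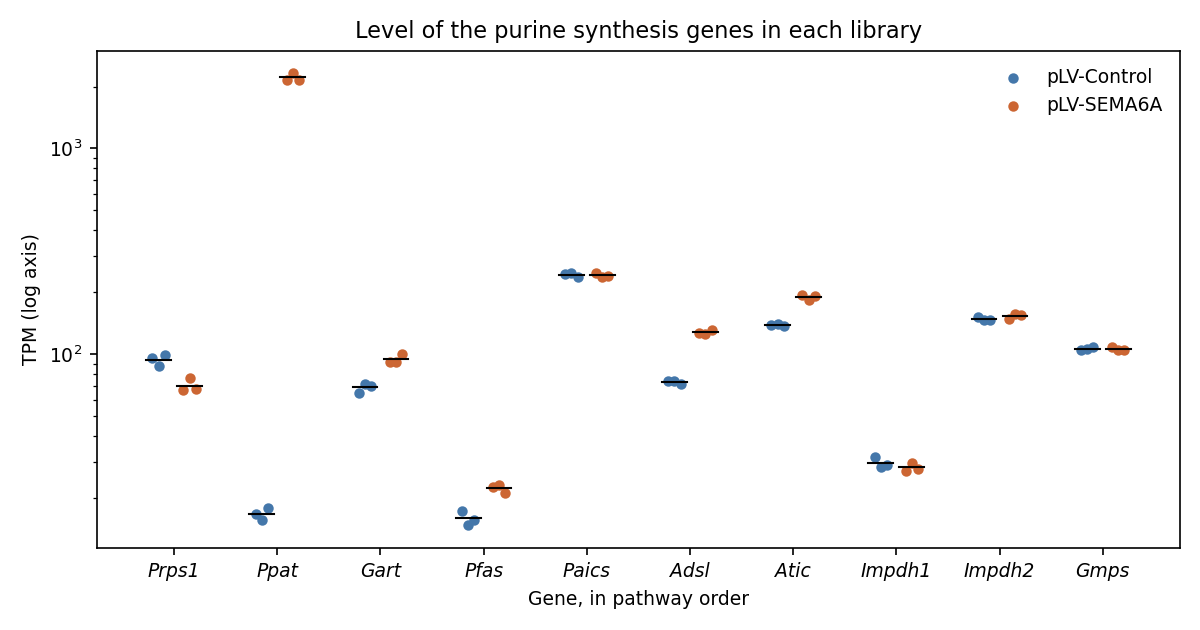
Level of each gene in each library, in TPM on a log axis, in pathway order from left to right. Points are libraries (3 per group) and horizontal bars are group means; Ppat moves from a mean of 16.7 to 2213 TPM, while the other genes stay within a factor of 1.74 of their pLV-Control mean.

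**Figure D2:**
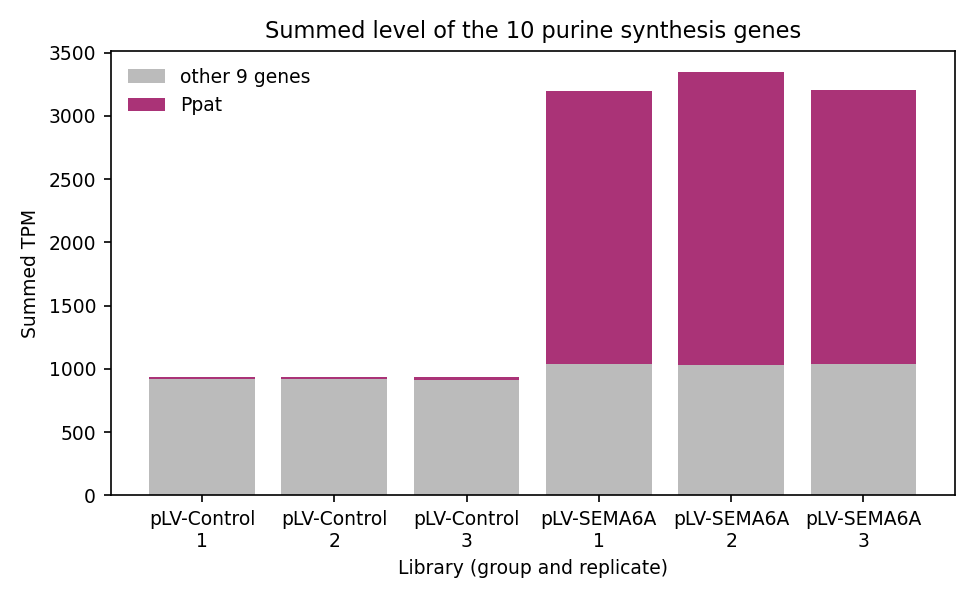
Summed TPM of the 10 genes in each of the 6 libraries, on an axis that starts at 0, with Ppat in colour and the other 9 genes in grey. The grey part rises from between 915 and 923 to between 1029 and 1039 TPM, and the Ppat part from between 1.67 and 1.91% of the sum to between 67.5 and 69.3%.

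The order of the other levels changed less. In pLV-Control it ran from Paics at 243 ± 4.36 TPM through Impdh2 (148 ± 2.80), Atic (138 ± 1.53), Gmps (106 ± 1.80), Prps1 (94.1 ± 5.78), Adsl (73.2 ± 1.31), Gart (69.0 ± 3.75), Impdh1 (29.6 ± 1.73) and Ppat to Pfas at 15.9 ± 1.33 TPM (SD, n = 3 each). Only the neighbours Adsl and Gart, and Ppat and Pfas, overlapped in their libraries. In pLV-SEMA6A, Ppat stood at the top, followed by Paics, Atic, Impdh2, Adsl, Gmps, Gart, Prps1, Impdh1 and Pfas, and no neighbouring pair overlapped.

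The other 9 members were compared with limma on log2(TPM + 1) in the fit of all 12510 genes averaging 1 TPM or more, with Benjamini-Hochberg adjustment over all of them. All 9 passed the filter on low values. At an adjusted p under 0.05, 4 were higher in pLV-SEMA6A (Gart, Pfas, Adsl and Atic), 1 was lower (Prps1) and 4 did not pass (Paics, Impdh1, Impdh2 and Gmps). The same rule called 47.6% of all genes tested, with 19.5% higher and 28.2% lower, so a call by itself was common. Over the 5 enzymes that follow Ppat on the way to IMP, 4 were higher and 1 did not pass, with a median log2 fold change of 0.45, against −0.06 over all genes tested. Over the 9 members the median was 0.05. The libraries of the groups did not overlap for 5 of the 9 members, and for 58.5% of all genes tested (23.8% with pLV-SEMA6A higher and 34.7% with it lower). With 3 libraries a side, the smallest p of an exact permutation test is 0.1, and the adjusted p-values depend on the variance that limma borrows from other genes.

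The background itself leaned downward, and centring each library on its median shifted the fold changes by 0.09. After centring, 7 of the 9 members were called higher, because Paics (0.0872), Gmps (0.0904) and Impdh2 (0.14) then passed as well, and the direction of Paics and Gmps turned from just below to just above 0. Centring also changed the balance over all genes tested, from 2436 higher and 3523 lower to 3370 higher and 2474 lower. Without pLV-SEMA6A replicate 2, the library apart in mt-Co3, the member counts stayed at 4 higher and 1 lower.

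Adsl, which splits off fumarate at a step to IMP and again on the way to AMP, had the clearest change among the 9. It lies at chr15:80948490-80970946 and was measured at 74.3, 73.7 and 71.8 TPM across pLV-Control versus 127, 124.6 and 132 TPM across pLV-SEMA6A. Each pLV-SEMA6A library was well above each pLV-Control library. The log2 fold change was 0.79 (95% confidence interval 0.72 to 0.87, adjusted p = 1.06e-05 from limma), a ratio of the means of 1.74. Adsl was the 1 member of the 9 that also exceeded an absolute log2 fold change of 0.5, the minimum for a differentially expressed gene (DEG). Of all genes tested, 5.12% were upregulated DEGs.

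Gart, Pfas and Atic rose by similar amounts. Gart, a protein that catalyses several early steps of ring assembly (chr16:91621186-91646952), was measured at 64.8, 71.9 and 70.4 TPM across pLV-Control versus 92.1, 91.8 and 100.4 TPM across pLV-SEMA6A. The groups did not overlap, and the log2 fold change was 0.45 (0.32 to 0.58, adjusted p = 0.000856 from limma). Of the 31-base stretches of Gart, 17.2% occur on the other strand in Gm15964, which averaged 0.663 TPM (pLV-Control) and 0.82 TPM (pLV-SEMA6A). Pfas, a glutamine-using enzyme that acts between the steps of Gart (chr11:68985697-69008460), was measured at 17.4, 14.7 and 15.7 TPM across pLV-Control versus 22.6, 23.1 and 21.0 TPM across pLV-SEMA6A. Its libraries were also separate, with a log2 fold change of 0.46 (0.29 to 0.63, adjusted p = 0.00243 from limma).

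Atic closes the purine ring to give IMP (chr1:71557150-71579631). It was measured at 138, 139.8 and 137 TPM across pLV-Control versus 194, 184 and 191 TPM across pLV-SEMA6A. The spread was small in both groups, and the log2 fold change was 0.45 (0.39 to 0.52, adjusted p = 5.35e-05 from limma). The interval of Adsl lay above those of Gart, Pfas and Atic, whose intervals overlapped each other. Each of these 4 rises was small beside that of Ppat, with ratios of the means of 1.37 for Gart, 1.40 for Pfas, 1.74 for Adsl and 1.37 for Atic.

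Paics, the enzyme of the carboxylation step and of the step after it, did not follow its neighbour Ppat. It was measured at 245, 247 and 238 TPM across pLV-Control versus 249, 238 and 240.3 TPM across pLV-SEMA6A, so the groups overlapped. The log2 fold change was −0.0061 with a 95% confidence interval of −0.07 to 0.06 (adjusted p = 0.870 from limma). The ratio of Ppat to Paics was 0.0684, 0.0630 and 0.0746 across pLV-Control versus 8.68, 9.75 and 8.996 across pLV-SEMA6A. Ppat thus went from far below Paics to far above it in every library.

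Prps1, which makes PRPP (chrX:140456613-140476140), was the member that fell. It was measured at 95.7, 87.8 and 99.0 TPM across pLV-Control versus 66.9, 76.6 and 67.4 TPM across pLV-SEMA6A, without overlap. The log2 fold change was −0.42 (−0.58 to −0.25, adjusted p = 0.00300 from limma). Prps1 shares 18.5% of its 31-base stretches with Prps1l3, which moved the other way, and how the counting assigned such reads is not given.

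The genes of the GMP branch did not pass the test. Impdh1 (chr6:29200434-29216364) and Impdh2 (chr9:108560286-108565584) oxidise IMP to XMP, and Gmps (chr3:63976106-64022579) aminates XMP to GMP with glutamine. Impdh1 was measured at 31.6, 28.4 and 28.95 TPM across pLV-Control versus 27.2, 29.7 and 27.7 TPM across pLV-SEMA6A. Its log2 fold change was −0.07 (−0.21 to 0.07, adjusted p = 0.365 from limma), with overlapping libraries. Impdh2 was measured at 152, 147 and 147 TPM across pLV-Control versus 149, 157 and 155 TPM across pLV-SEMA6A. The groups overlapped again, and the log2 fold change was 0.05 (−0.02 to 0.12, adjusted p = 0.229 from limma). Its copy Impdh2-ps shares 43.2% of the 31-base stretches and was listed at no more than 0.05 TPM.

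Gmps was measured at 104, 106 and 108 TPM across pLV-Control versus 109, 104 and 105 TPM across pLV-SEMA6A. The groups lay on top of each other, and the log2 fold change was −0.0028 (−0.07 to 0.07, adjusted p = 0.946 from limma). The ratio of Impdh2 to Impdh1 was 4.80, 5.18 and 5.06 in pLV-Control and 5.48, 5.28 and 5.60 in pLV-SEMA6A. Impdh2, the form known to be raised in dividing cells, was thus the more abundant form in every library. A missed threshold does not show that these levels were equal, and the intervals give the differences that these libraries allow.

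**Figure D3:**
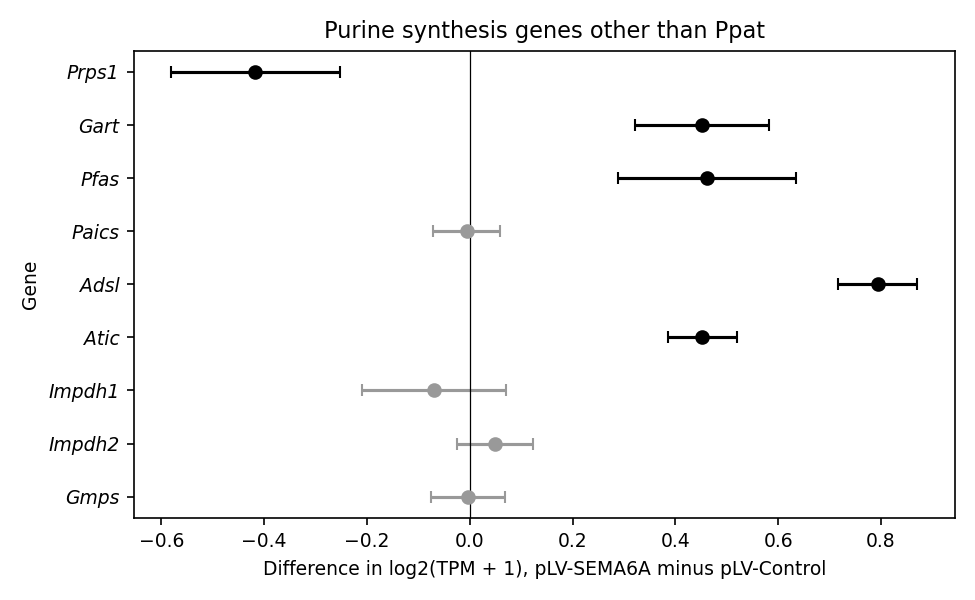
Difference in log2(TPM + 1), pLV-SEMA6A minus pLV-Control, for the 9 genes other than Ppat, with 95% confidence intervals from limma (3 libraries per group). Black points have an adjusted p under 0.05 and grey points do not; Adsl at 0.79 lies above Gart, Pfas and Atic, Prps1 lies at −0.42, and the intervals of the other 4 genes include 0.

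Genes whose pattern over the 6 libraries was most like that of Ppat were found by the mean absolute difference of log2(TPM + 1) centred on each gene's own mean. The 5 nearest were Sema6a itself (0.0907), Pkd1l1 (0.138), 4930578N18Rik (0.466), Snora70 (0.745) and AL603707.1 (1.18). Pkd1l1, on chromosome 11, was measured at 0, 0.01 and 0 TPM across pLV-Control versus 135, 147 and 99.1 TPM across pLV-SEMA6A. 4930578N18Rik, a lincRNA of chromosome 16, was measured at 1.72, 1.70 and 1.63 TPM across pLV-Control versus 173, 178 and 174 TPM across pLV-SEMA6A. The libraries of each of these 2 genes were far apart between the groups, as for Ppat.

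Snora70 was listed at 0 throughout pLV-Control, against 49.7, 23.8 and 77.5 TPM in pLV-SEMA6A. AL603707.1 was measured at 11.9, 0 and 0 TPM across pLV-Control versus 47.3, 62.0 and 93.1 TPM across pLV-SEMA6A, so a single pLV-Control library carried its level there. None of the 5 is an enzyme of purine synthesis. The member nearest to Ppat was Adsl, at a distance of 3.09 and rank 282 of the genes tested, followed by Pfas (rank 957), Atic (1001) and Gart (1002). Paics ranked 5389 and Prps1 10322. The ranks of the members follow the order of their log2 fold changes and add nothing separate to them. They also use the values of Ppat that led to the choice of the members, so they are a description.

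The neighbours of Ppat on chromosome 5 were examined next. Besides Ppat, 28 genes are annotated within 500 kb, and 10 of them were tested. In limma 1 was higher, 4 were lower and 5 did not pass, among them Paics, so 5 of 10 were called, where 47.6% of all genes tested were. Igfbp7, a secreted protein that binds insulin-like growth factors, was measured at 244, 259.7 and 221 TPM across pLV-Control versus 107, 110.2 and 117 TPM across pLV-SEMA6A. It fell by 1.11 on the log2 scale (adjusted p = 4.48e-05 from limma). Exoc1, a subunit of the exocyst, fell by 0.54 (adjusted p = 0.000613 from limma). Noa1, a mitochondrial GTPase, rose by 0.27 (adjusted p = 0.00556 from limma).

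The 2 lower calls closest to Ppat were fragile. Aasdh, 7.74 kb away, was measured at 17.7, 11.99 and 11.9 TPM across pLV-Control versus 10.8, 8.12 and 6.27 TPM across pLV-SEMA6A. Its log2 fold change was −0.66 (adjusted p = 0.0445 from limma), and this call was lost under 8 of 11 alternatives. Srp72, a part of the signal recognition particle 23.1 kb away, was at −0.11 on the same scale (adjusted p = 0.0400 from limma), also lost under 8 of 11. Without pLV-Control replicate 2, pLV-Control replicate 3 or pLV-SEMA6A replicate 3, 2 genes of the region were called lower instead of 4, because both of these calls were lost. Arl9, 52.5 kb away, was listed at 0 throughout pLV-Control, against 0.44, 0.68 and 0.45 TPM in pLV-SEMA6A. The antisense gene 2310040G07Rik, inside Ppat, was listed at 0 except for 0.31 TPM in pLV-SEMA6A replicate 3. Of the genes tested in the region other than Ppat, the highest log2 fold change was thus the 0.27 of Noa1.

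**Figure D4:**
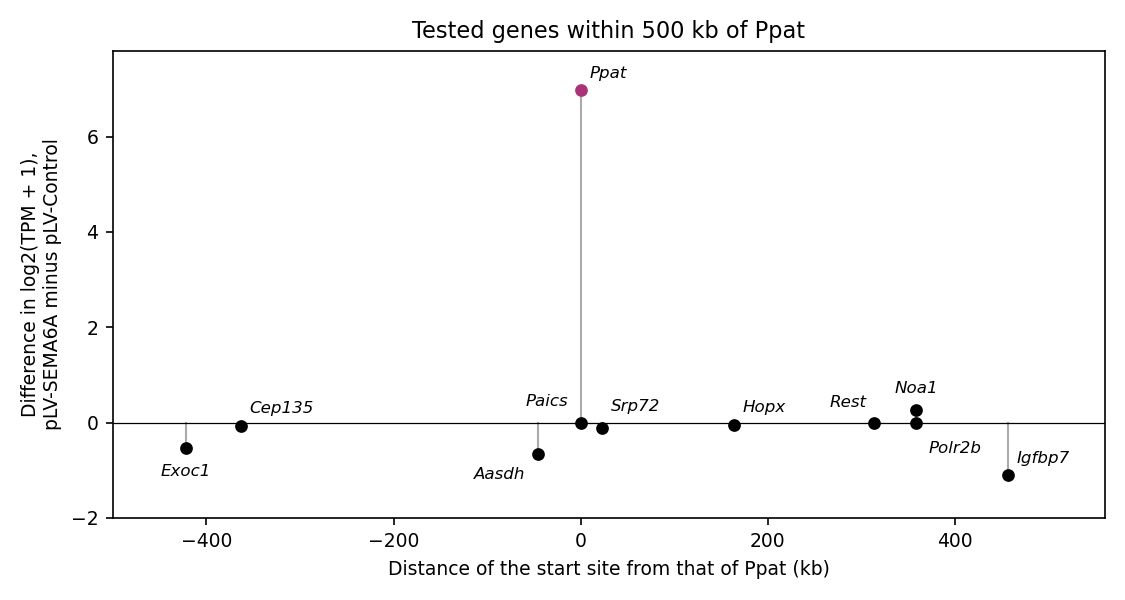
Difference in log2(TPM + 1), pLV-SEMA6A minus pLV-Control, of the genes tested within 500 kb of Ppat, against the distance of their start sites from that of Ppat in kb. Ppat stands at 6.97, Paics beside it at −0.0061, and the other tested genes lie between −1.11 (Igfbp7) and 0.27 (Noa1).

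The Ppat transcripts share little sequence with other genes. Of the 31-base stretches of the annotated Ppat transcripts, 1.08% also occur in another gene on the same strand. Short runs of this kind were found in 266 genes, the most abundant of which averaged 3898 TPM in 1 of the groups. The largest part of these, 0.720%, is shared with Rmi2, a genome stability factor that averaged 1.58 TPM (pLV-Control) and 2.29 TPM (pLV-SEMA6A). On the opposite strand the share was 6.41%, of which Paics takes 5.44%, and 7.51% of the stretches of Paics occur in antisense in Ppat. Whether the counting used strand is not given in the sources used here.

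The wider purine network was read from 7 lists of 102 genes, of which 98 were tested. In all, 30 were higher, 27 were lower and 41 did not pass, with a median log2 fold change of 0.01. With each library centred on its median, 42 were higher and 20 were lower. Without centring, 58.2% were called, against 47.6% of all genes tested. The lists were drawn up with results of these data known, so the counts are a description.

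The genes that supply PRPP had a median of −0.18, with 4 of 11 tested genes higher, 6 lower and 1 not past the threshold. That is 90.9% called, where 47.6% of all genes tested were (19.5% higher and 28.2% lower). Prps2, the sister enzyme of Prps1, fell by 0.36 (adjusted p = 0.00565 from limma), from 15.8 to 12.1 TPM. Prpsap1, which binds and restrains the Prps enzymes, fell by 0.47 (adjusted p = 0.000443). The similar Prpsap2 was at −0.11 and did not pass (adjusted p = 0.437). Prps1l3 rose from 16.6 to 24.4 TPM (log2 fold change 0.52, adjusted p = 0.0157), but 30.8% of its stretches occur in other genes, mainly Prps1. The call for Prps1l3 was lost without pLV-Control replicate 1 (adjusted p = 0.0513) or replicate 2 (adjusted p = 0.0525). In the pentose phosphate pathway, which makes the ribose, Rpia rose by 0.39 and the gatekeeper G6pdx by 0.34, while Tkt (−0.19) and Taldo1 (−0.28) fell.

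In the AMP and GMP branches and the nucleotide kinases, 6 of 15 tested genes were higher, 5 were lower and 4 did not pass (median 0.05). Calls thus took 73.3% of this list, against 47.6% of all genes tested. Adss, the adenylosuccinate synthetase that hands its product to Adsl, rose from 74.3 to 103.3 TPM (log2 fold change 0.47, adjusted p = 9.14e-05 from limma). The muscle-type form Adssl1 was lower (−0.32, adjusted p = 0.0202), a call that was lost under 6 of 11 alternatives. Gmpr2, which returns GMP to IMP, fell by 0.56 (adjusted p = 0.000305). It shares 39.5% of its stretches in antisense, mainly with Tinf2. Nme1, a nucleoside diphosphate kinase, rose by 0.44 (adjusted p = 0.000490). Other genes hold 11.7% of the stretches of Nme1 on the same strand, mainly Gm20390, at 114.8 TPM (pLV-Control) and 139.7 TPM (pLV-SEMA6A). Nme3 was at 0.66 (adjusted p = 0.0448), which was lost under 8 of 11 alternatives, and 78.5% of its stretches are shared with Mrps34. The counts of this list were thin, with 3 higher without pLV-Control replicate 3 or pLV-SEMA6A replicate 2, 3 lower without either of them, and 2 lower without pLV-Control replicate 2. With each library centred on its median, 8 of the list were higher and 2 lower.

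Folate one-carbon genes supply the formyl groups that Gart and Atic build into the ring. Of 21 tested, 9 were higher, 3 were lower and 9 did not pass, with a median of 0.12. The called share was 57.1%, against 47.6% of all genes tested. Shmt2, the mitochondrial serine hydroxymethyltransferase, rose from 264.6 to 388 TPM (log2 fold change 0.55, adjusted p = 5.19e-05 from limma). Mthfd1l, which releases formate from mitochondria, rose by 0.68 (adjusted p = 3.05e-05). Its cytosolic partner Mthfd1, which makes formyl folate, rose by 0.40 (adjusted p = 0.000851). Gcsh, a carrier of the glycine cleavage system, rose by 0.52, and Tyms, which makes thymidylate rather than purines, rose by 0.81. The lower genes included Mthfs, which returns formyl folate to the folate pool, and Amt, another part of the glycine cleavage system. Mthfs fell by 0.91 (adjusted p = 0.00347) and Amt by 0.76 (adjusted p = 0.00285), both from low levels of 5.72 and 5.06 TPM. Mthfd2 rose by 0.12 (adjusted p = 0.00462).

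Among the genes that supply glutamine, glycine and aspartate, 7 of 13 were higher, 4 were lower and 2 did not pass (median 0.08). Here 84.6% were called, against 47.6% of all genes tested. The serine pathway genes Psat1 (0.51), Psph (0.66) and Phgdh (0.32) rose, as did the amino acid carrier Slc7a5, from 171 to 281 TPM (0.71, adjusted p = 1.39e-05 from limma). The genes around the substrates of Ppat thus moved in both directions.

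The other glutamine amidotransferases, enzymes that use glutamine nitrogen for other pathways, were read in the same way. In limma 0 of 10 passed in either direction, where 47.6% of all genes tested did, 2 of 10 had an unadjusted p under 0.05, and the log2 fold changes ran from −0.33 to 0.31. Cad, which starts pyrimidine synthesis, was at 0.04 (adjusted p = 0.588), Ctps at −0.02 (adjusted p = 0.632) and Asns at −0.02 (adjusted p = 0.411). With each library centred on its median 1 passed as higher, Asns then being at 0.0713 (adjusted p = 0.0340), without pLV-SEMA6A replicate 1 also 1 as higher, and without pLV-SEMA6A replicate 2 1 as lower.

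Of the known regulators of purine genes, 2 of 16 were higher, 5 were lower and 9 did not pass (median −0.04). Their called share of 43.8% was near the 47.6% of all genes tested. Myc, which is known to bind E-boxes of purine genes, was at −0.06 (adjusted p = 0.209 from limma), and Atf4, which drives serine and one-carbon genes, at −0.02 (adjusted p = 0.479), which turned to 0.0769 with centring (adjusted p = 0.0227). Nrf1 was at 0.21 (adjusted p = 0.0649) and passed in 2 of 11 alternatives. Mxi1, a Myc antagonist, fell by 0.49, Sp1, which binds GC boxes, by 0.41, and Tsc2, a brake on mTORC1, by 0.37. Mlx rose by 0.35, and Rheb, an activator of mTORC1, by 0.09, a call lost under 7 of 11 alternatives. The count of regulators that were higher was 1 without pLV-SEMA6A replicate 2 or replicate 3, and 7 with each library centred on its median.

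Purine salvage and breakdown had 2 of 12 tested genes higher, 4 lower and 6 not past the threshold (median 0.03). Calls in this list were thus about as common as over all genes tested, of which 47.6% passed. Ampd3, which deaminates AMP back to IMP, was measured at 50.1, 48.9 and 48.0 TPM across pLV-Control versus 13.7, 16.04 and 13.5 TPM across pLV-SEMA6A. It fell by 1.70 on the log2 scale (adjusted p = 1.11e-05 from limma), the largest absolute change among the 98 tested genes of these lists, while Ampd2 at 0.02 did not pass (adjusted p = 0.813). Aprt, which salvages adenine using PRPP, rose from 218 to 301 TPM (0.47, adjusted p = 2.86e-05). Hprt, which salvages hypoxanthine and guanine, rose by 0.16 (adjusted p = 0.00756). Xdh, an enzyme of purine breakdown, fell by 0.46 and Dguok, a mitochondrial deoxyguanosine kinase, by 0.49.

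**Figure D5:**
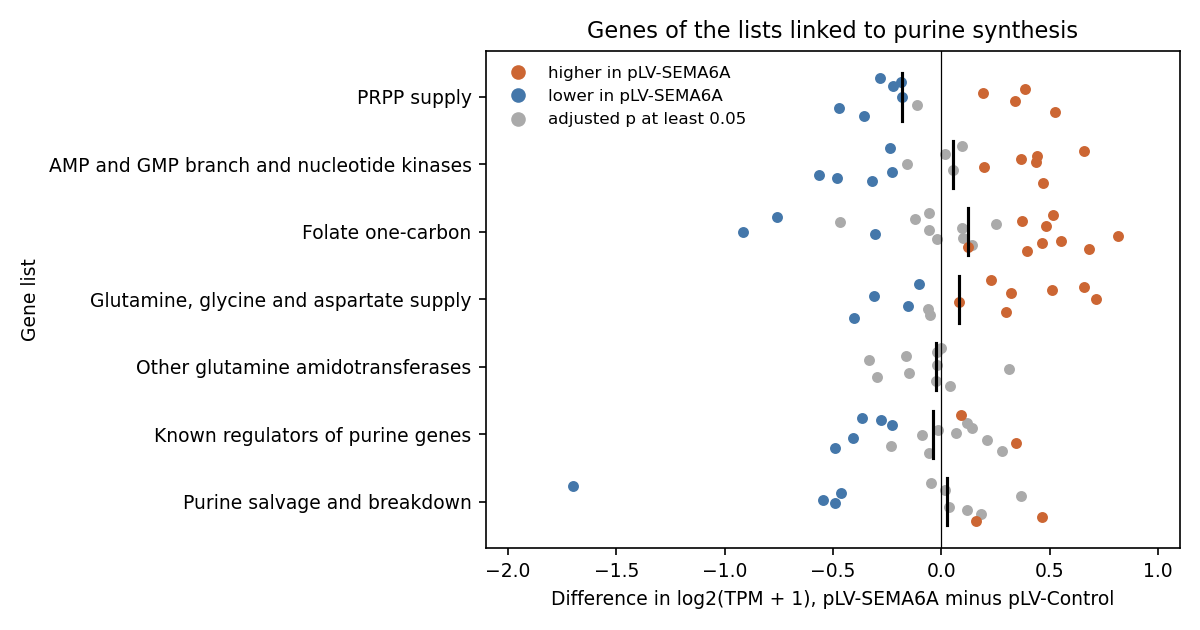
Difference in log2(TPM + 1), pLV-SEMA6A minus pLV-Control, of the 98 tested genes in 7 lists linked to purine synthesis, 1 point per gene, with vertical bars at list medians. Orange and blue points have an adjusted p under 0.05 from limma; medians run from −0.18 (PRPP supply) to 0.12 (folate one-carbon), and Ampd3 at −1.70 is the point at the far left.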

How the data were processed

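Poly-A-selected RNA of 3 pLV-Control and 3 pLV-SEMA6A libraries was sequenced on an Illumina platform after random-primed reverse transcription. The authors deposited values with 2 decimals, read here as TPM, for 53700 genes, plus their mean of each group, which was not used. The submitters' processing notes name HISAT, Bowtie2, RSEM and mm39, without versions or roles. TPM keep no depth, so no counting interval was given, and the authors' DESeq2 test, which needs read counts, was not run.

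The model was limma 3.58.1 (R 4.3.3) on log2(TPM + 1), with a trend and no term besides the group. It covered 12510 genes averaging 1 TPM or more, and Benjamini-Hochberg adjustment ran over all of them. Fold changes on this scale understate the change of low genes. A call is an adjusted p under 0.05, and a DEG also has an absolute log2 fold change over 0.5. The steps were tested on simulated data.

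The members and gene lists were chosen with earlier results of these data known. Named genes were the members, up to 4 genes per list with the largest absolute log2 fold change among calls averaging 5 TPM or more whose groups did not overlap, list genes with a direct role beside a step described, tested genes within 500 kb of Ppat, and the 5 genes nearest to it in pattern. Genes outside that rule that are also named were chosen after their values were seen. GENCODE M21 (GRCm38) holds 97.1% of the identifiers and gave positions and shared 31-base stretches by identifier. Start windows were those of RefSeq on GRCm38.p6. No coordinate was converted. Protein sequences were not used here. The single values of some list genes are not reported here.

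The alternatives were a pseudocount of 0.1, no filter, median centring, no trend, the replicate block and leaving out each library.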

Additional observations from a re-analysis of the deposited data

How the results depend on the processing

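Of 61 named genes, 49 stayed on their side of the threshold in all 11 alternatives, and no value of theirs that passed changed sign. Ppat differed by 7.06 on the log2 scale after each library was centred on its median, and by 6.92 to 7.01 when 1 library was left out. Centring also turned Paics to 0.0872 (adjusted p = 0.0429 from limma), Gmps to 0.0904 (adjusted p = 0.0488), Asns to 0.0713 (adjusted p = 0.0340) and Atf4 to 0.0769 (adjusted p = 0.0227), and brought Impdh2 to 0.14 (adjusted p = 0.00938). It gave 7 members higher (4 without centring) and 4 upregulated DEGs among them (1), 42 higher, 20 lower, 15 upregulated and 3 downregulated DEGs in the linked lists (30, 27, 9 and 5), 2 higher, 2 lower and 1 downregulated DEG near Ppat (1, 4 and 3), and 1002 upregulated and 961 downregulated DEGs over all genes (640 and 1347). With a pseudocount of 0.1, 8 linked genes were downregulated DEGs. With no filter, 2 genes near Ppat were higher, 2 were lower and 1 was an upregulated DEG. Without the trend, 2 near Ppat were lower. The cause of these was not tested.

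Leaving out each library gave 4 members higher and 1 lower each time, with 1 to 2 upregulated DEGs (2 without pLV-Control replicate 1, Pfas then being at 0.52). The linked lists gave 26 to 30 higher, 23 to 27 lower, 7 to 10 upregulated DEGs and 4 to 8 downregulated DEGs (8 without pLV-Control replicate 3). Near Ppat 2 to 3 genes were lower and 2 to 3 were downregulated DEGs. The ratio of Ppat to Paics was 0.0657 to 0.0715 in pLV-Control and 8.84 to 9.37 in pLV-SEMA6A.

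Deviations from the group means were not shared by libraries of the same replicate number (mean correlation −0.06, other numbers 0.03). With only 3 same-number pairs, this cannot tell whether libraries were prepared in pairs by number. With the replicate block, 4 members were higher, 1 was lower and 1 was an upregulated DEG, and over all genes 2168 were higher and 3059 lower. Of the named genes, Nme3 (adjusted p = 0.0690 from limma), Srp72 (adjusted p = 0.0922), Adssl1 (adjusted p = 0.0579) and Rheb (adjusted p = 0.0690) lost their calls under it. Depth behind TPM is unknown, so low values such as those of Aasdh or Nme3 carry an unknown counting error.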
